A study of Mus musculus with 4 samples.

Results

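The pyruvate dehydrogenase complex and the enzymes that switch it were followed in cortex tissue from male mice of SAMP8, a senescence-prone inbred strain. The members were chosen by name: kinases Pdk1, Pdk2, Pdk3 and Pdk4, phosphatases Pdp1 and Pdp2, and complex subunits Pdha1, Pdhb, Dlat and Pdhx, 10 genes in all. The set was selected on earlier sight of the differences between TCQA and control arrays in these same data, so those differences are a description here and no p-value is given for a member. All 10 genes had a named probe set, 1 each, among the 22206 gene probe sets of the array. Mice of both groups were kept singly from 7 months of age for 4 months. From 11 months of age one group received oral TCQA (the labels give the compound as this abbreviation) at 5 mg/kg each day for 1 month, and the controls were given MilliQ water. There were 2 arrays per group. Nothing in the labels ties an array to a mouse of its own, so p-values and errors measure only the spread between these arrays, which may be technical. The tissue was whole cortex, and in such bulk RNA fewer cells of a type cannot be told apart from less RNA per cell.

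Pyruvate dehydrogenase turns the pyruvate made by glycolysis into acetyl-CoA inside mitochondria and so joins glycolysis to the citric acid cycle, the route by which neurons draw most of their energy from glucose. The complex has a decarboxylase, E1, built of alpha and beta subunits (Pdha1 and Pdhb), an acetyltransferase core, E2 (Dlat), and a dehydrogenase, E3, held on by the E3-binding protein (Pdhx). The kinases phosphorylate E1 alpha and stop the complex, and the phosphatases remove the phosphates and start it again. The values are log2 signals, and a difference of 1 is a 2-fold change. A probe set can be followed between arrays, while levels of different genes were not set against each other. Negative control probe sets had medians of 7.17 to 7.32 by array, and values near or under these are called dim here. The median of all gene probe sets was no higher, at 7.12 to 7.17 by array. A dim value is therefore usual on this array and is not by itself a value at the detection limit.

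Pdk4 differed most among the 10 genes. Its log2 signal was 8.70 and 8.47 on the TCQA arrays and 7.62 and 7.62 on the control arrays. Both TCQA arrays lay above both control arrays, by more than the spread within either pair. Mean signal was 7.62 ± 0.0014 in controls and 8.59 ± 0.16 after TCQA (SD, n = 2 each). TCQA was higher by 0.96 (limma SE 0.18), or 1.95-fold. The control signals were 0.30 and 0.45 above the median negative control of their arrays and above 56.1% and 58.8% of the 5222 negative control probe sets. The TCQA signals were 1.49 and 1.25 above the median negative control. The fold is therefore measured against a dim control level. By its mean over the 4 arrays Pdk4 was brighter than 58.5% of all gene probe sets. Of the 22206 gene probe sets 77 had a higher difference. The Pdk4 kinase is known in heart and muscle for its induction by fasting, glucocorticoids and fatty acids, through glucocorticoid, PPAR and FOXO transcription factors. With only TCQA replicate 1 kept in its group the difference was 1.08, and with only TCQA replicate 2 it was 0.85. Against control replicate 2 alone it was 0.96, and against control replicate 1 alone 0.97. The control arrays differed by 0.002, whereas the median gap between the control arrays over all gene probe sets was 0.21, and 106 probe sets had a smaller gap than Pdk4. The standard error borrows spread from the whole table and does not rest on that gap alone.

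Pdk2, a widely expressed kinase of the family, had the lowest difference of the 10. It read 12.35 and 11.81 with TCQA and 12.52 and 12.23 in control. The groups overlapped, and the low TCQA replicate 2 stood apart from the other arrays. Means of 12.08 ± 0.38 and 12.37 ± 0.21 (SD, n = 2 each) gave a difference of -0.29 (SE 0.24). It was -0.56 without TCQA replicate 1 and -0.027 without TCQA replicate 2, so that 1 array carried nearly all of it.

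Pdk1, the kinase known as a target of the hypoxia factor HIF, read 9.60 and 9.84 on the TCQA arrays and 9.77 and 9.54 in control. The groups overlapped and the difference was 0.066 (SE 0.19). It took the opposite sign without TCQA replicate 2, at -0.054, and without control replicate 2, at -0.045. Pdk3, the fourth kinase, read 9.26 and 8.96 with TCQA and 8.72 and 9.10 in control. Its groups overlapped too, and its difference of 0.20 (SE 0.22) was 0.0057 without control replicate 1. No test of a difference between kinases was made.

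**Figure D1:**
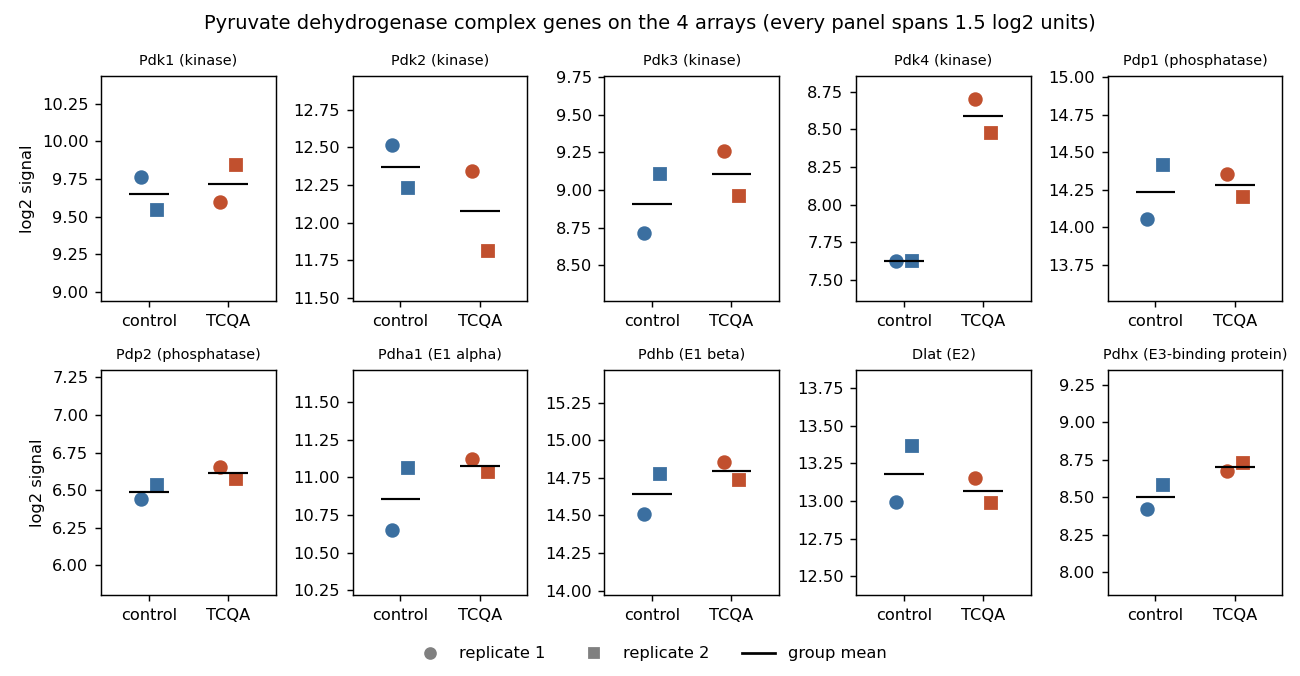
Each panel plots the log2 signal of 1 gene on the 4 arrays, with control on the left and TCQA on the right. Circles are replicate 1, squares are replicate 2 and black lines are group means. Pdk4 at 8.70 and 8.47 sits above its control arrays at 7.62, while most other panels overlap.

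Neither phosphatase differed by more than its standard error. Pdp1, the calcium-stimulated phosphatase, read 14.35 and 14.20 with TCQA and 14.06 and 14.42 in control, with a difference of 0.041 (SE 0.20). The control arrays lay on either side of both TCQA arrays. Leaving out control replicate 1 gave -0.14, and leaving out control replicate 2 gave 0.22. Pdp2, the phosphatase known to respond to insulin, read 6.65 and 6.58 with TCQA and 6.44 and 6.54 in control. Its groups did not overlap, but the difference of 0.12 (SE 0.17) was below its standard error and all 4 values were under the median negative control.

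Both E1 subunits were lowest on the same control array. Pdha1, the E1 alpha subunit that carries the phosphorylated serines, had signals of 11.12 and 11.03 with TCQA and 10.65 and 11.06 in control. Control replicate 1 was the low array, and the other control array lay between the TCQA arrays. Its difference was 0.22 (SE 0.21), and 0.015 without control replicate 1. Pdhb, the E1 beta subunit, read 14.85 and 14.74 with TCQA and 14.51 and 14.78 in control. The same control array was low, and the difference of 0.15 (SE 0.19) was 0.018 without it.

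Dlat, the lipoyl-bearing core enzyme, read 13.15 and 12.98 with TCQA and 12.99 and 13.37 in control. Control replicate 2 was the high array and the other 3 lay close together. The difference was -0.11 (SE 0.21), and its sign depended on the control array used, at -0.30 against control replicate 2 alone and 0.074 against control replicate 1 alone. Pdhx, which anchors E3 to the core, read 8.67 and 8.73 with TCQA and 8.42 and 8.58 in control. Its groups did not overlap, its replicates were close (8.70 ± 0.039 and 8.50 ± 0.11, SD, n = 2 each), and its difference of 0.20 (SE 0.18) was 0.12 against control replicate 2 alone and 0.28 against control replicate 1 alone.

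**Figure D2:**
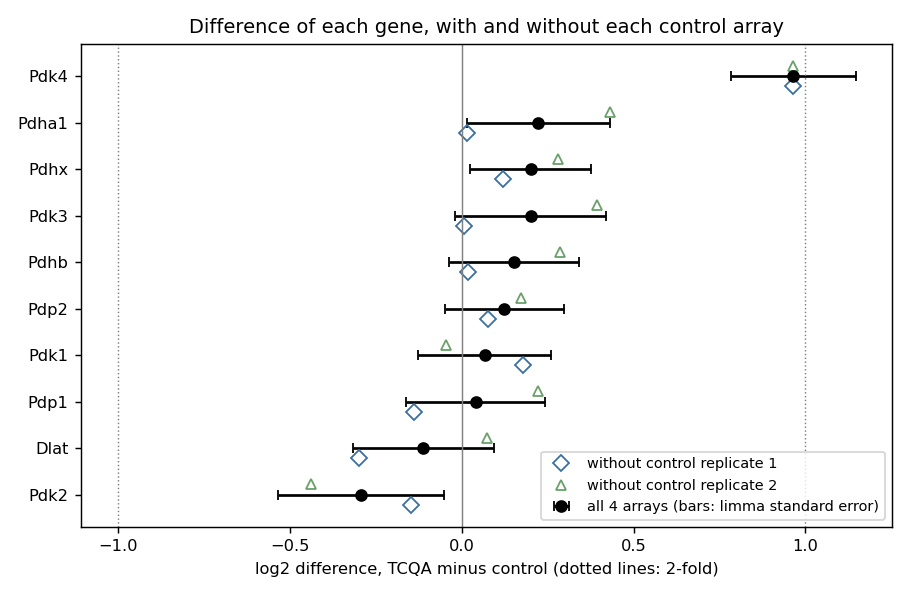
The log2 difference, TCQA minus control, is plotted for each of the 10 genes, with the limma standard error as the bar and 2-fold as dotted lines. Open diamonds leave out control replicate 1 and open triangles leave out control replicate 2. Pdk4 stays at 0.96 and 0.97, and Pdha1, Pdhb and Pdk3 move to 0.015, 0.018 and 0.0057 without control replicate 1.

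As a set, 8 of the 10 genes had a higher mean with TCQA and 2 a lower one, where 51.1% of all gene probe sets had a higher mean. The median difference was 0.14, beside 0.0071 over all gene probe sets. In 3 genes (Pdk4, Pdp2 and Pdhx) both TCQA arrays lay above both control arrays, as they did in 18.9% of all probe sets, and in 0 genes they lay below, as in 17.8%. The depositors' own threshold, which asks for over 2-fold at an unadjusted p under 0.05, was met by 0.374% of the probe sets (83) and by 0 of the 10, with Pdk4 under 2-fold. Nothing is read from these shares, since the members were proposed with this contrast in view.

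Many of these values turned on 1 control array. For 7 of the 10 genes control replicate 1 gave the lowest signal (Pdk3, Pdk4, Pdp1, Pdp2, Pdha1, Pdhb and Pdhx, with Pdk4 lower there by only 0.002), and it did so for 27.1% of all gene probe sets. Taking each gene relative to its own mean, the median over the 10 genes was 0.11 on TCQA replicate 1, 0.021 on TCQA replicate 2, -0.19 on control replicate 1 and 0.030 on control replicate 2. Without control replicate 1 the median difference of the 10 genes was 0.016, and 7 of 10 were higher. Without control replicate 2 it was 0.25, with 8 of 10 higher. The groups also differed in 12 immediate early genes, which neurons switch on when active: 12 of 12 had a lower mean with TCQA, 9 with no overlap of the groups (17.8% of all probe sets in this direction) and 9 past the depositors' criterion (0.374%), with a median of -1.46. This list was also chosen with earlier results of these data known, so its counts are a description. All 12 peaked on control replicate 1, and without it the median was -1.06, with 11 of 12 lower. Their summed log2 signal was 14.69 to 14.91 with TCQA and 15.39 and 16.25 in control, with 16.25 on control replicate 1. The part of these genes' state, in the group or in that array, in the values of the complex was not tested.

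**Figure D3:**
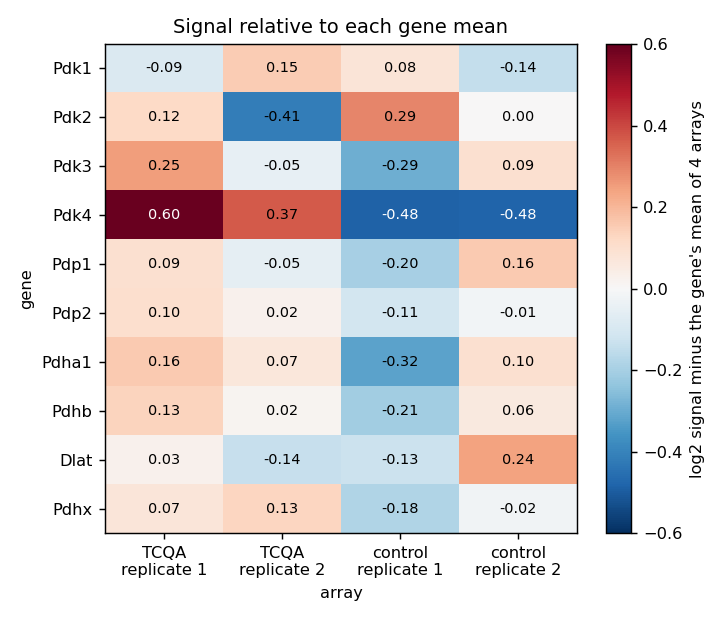
Colour and number give the log2 signal of each gene (rows) on each array (columns) minus the mean of its 4 arrays. The column of control replicate 1 is lowest for 7 of the 10 genes, and the row of Pdk4 is the only one in which both control arrays are far below both TCQA arrays.

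Promoter sequence was read for the genes whose values differed in kind: Pdk4, whose groups separated, Pdk2, with the lowest difference (the first of its 2 windows), and Pdhb, as an E1 subunit. Windows of 300 bases, from 250 before to 50 after a start site, came from RefSeq on build GRCm38.p6, and 9 of the 10 members had 11 windows, with Pdp1 not among them. Each of the 3 is the window of a minus-strand gene, printed 5′ to 3′ along the gene. Pdk4 is at chr6:5496229-5496528, Pdk2 at chr11:95041322-95041621 and Pdhb at chr14:8172943-8173242. Capitals mark matches on either strand to the CCAAT box (CCAAT, or ATTGG on the other strand) and the GC box (GGGCGG or its reverse complement).
Pdk4: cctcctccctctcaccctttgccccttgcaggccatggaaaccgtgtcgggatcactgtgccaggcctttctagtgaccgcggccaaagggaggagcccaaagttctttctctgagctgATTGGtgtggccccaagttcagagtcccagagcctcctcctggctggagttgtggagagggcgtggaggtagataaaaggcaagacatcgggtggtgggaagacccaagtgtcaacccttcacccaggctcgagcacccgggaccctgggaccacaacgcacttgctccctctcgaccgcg
Pdk2: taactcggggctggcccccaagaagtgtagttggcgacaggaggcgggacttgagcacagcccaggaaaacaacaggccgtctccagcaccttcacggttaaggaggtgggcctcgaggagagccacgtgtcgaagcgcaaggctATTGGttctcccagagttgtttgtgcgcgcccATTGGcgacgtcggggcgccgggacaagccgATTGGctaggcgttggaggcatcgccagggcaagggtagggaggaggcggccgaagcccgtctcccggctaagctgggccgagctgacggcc
Pdhb: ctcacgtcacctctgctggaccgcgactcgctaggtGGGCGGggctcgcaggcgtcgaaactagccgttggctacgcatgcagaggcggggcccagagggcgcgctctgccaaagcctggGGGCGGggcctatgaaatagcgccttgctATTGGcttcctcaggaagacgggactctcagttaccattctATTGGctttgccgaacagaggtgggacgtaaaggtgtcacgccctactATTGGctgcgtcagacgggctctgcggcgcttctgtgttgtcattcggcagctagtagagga
The Pdk4 window held 1 CCAAT match, at position -131 from the start site, and 0 GC boxes. Pdk2 held 3 CCAAT matches, at -105, -73 and -42, and Pdhb held 3, at -101, -60 and -12, with 2 GC boxes. CCAAT was in 37.4% of all 32851 windows and in 6 of the 11 member windows, and GGGCGG in 35.7% and in 6 of 11. The FOXO motif GTAAACA (either strand) was in 3.65% of all windows, the nuclear receptor half-site AAGGTCA in 4.72%, the cAMP response element TGACGTCA in 1.79% and the TATA box TATAAA in 13.6%. None of these 4 sets of letters was in a member window, Pdk4 included (0 of 11 each). Searched in the same way, the glucocorticoid half-site AGAACA was in 1 of 11 member windows, the second window of Pdk1, and in 19.0% of all windows. The hypoxia core ACGTG, a form of the core of the HIF element, was in 4 of 11 member windows and in 19.6% of all windows. Those 4 were windows of Pdk2, Pdk3, Pdp2 and Pdhb. The form GCGTG was not searched, so a window without ACGTG may still hold the core. These short motifs occur widely, and a match is no evidence of binding.

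CpG content set the windows apart in degree. The ratio of observed to expected CpG was 0.436 in the Pdk4 window, with 12 CpG sites, the lowest ratio among the first windows of the 9 members. It was 0.507 for Pdp2, 0.677 for Dlat, 0.741 for Pdha1, 0.772 for the first window of Pdk1, 0.817 for the first window of Pdk2, 0.861 for Pdhx, 0.869 for Pdhb and 1.01 for Pdk3, against a median of 0.384 over all windows.

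Genes around the complex were read from 8 lists, written from general knowledge with earlier results of these data known: 110 symbols, of which 103 had a named probe set. At an unadjusted p under 0.05 in limma, 7 of the 103 were higher (3.38% of all probe sets) and 1 was lower (2.86% of all probe sets). After Benjamini-Hochberg adjustment 0 of 103 passed, as did 0% of all probe sets (0 of 22206 by limma, smallest adjusted p = 0.697, with 1386 at an unadjusted p under 0.05). Together the lists had 56 higher and 47 lower means and a median difference of 0.037. Without control replicate 1 the count of list genes at an unadjusted p under 0.05 was 5, and without control replicate 2 it was 4, in place of 8.

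Of the 10 genes listed as partners of the complex, those that make its lipoyl group included, 5 were higher and 5 lower. Their median was 0.038, and 1 had an unadjusted p under 0.05. That gene was Nfu1, an iron-sulfur cluster protein needed to make the lipoyl group of E2. It read 9.23 and 8.75 with TCQA and 9.62 and 9.59 in control, a difference of -0.61 (SE 0.22, limma adjusted p = 0.787). Both TCQA arrays were lower, TCQA replicate 2 more so, and without it the difference was -0.37. Dld, the E3 subunit, differed by 0.12 (SE 0.17) and was at 0.046 without control replicate 1 and 0.18 without control replicate 2. Pdpr, the regulatory subunit of the phosphatase, differed by 0.32 (SE 0.20), with 0.49 and 0.16 without the same arrays in turn. Lias, the lipoyl synthase, differed by 0.25 (SE 0.21) and lay between 0.072 and 0.42 when each array was left out, lowest without control replicate 2.

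The list of pyruvate supply and use had 6 of 13 higher, a median of -0.028 and 0 genes with an unadjusted p under 0.05. Mpc1, a subunit of the carrier that brings pyruvate into mitochondria, was at 14.65 and 14.76 with TCQA and 14.93 and 15.07 in control, a difference of -0.30 (SE 0.18, limma adjusted p = 0.831) with no overlap of the groups. The lactate dehydrogenase subunit genes Ldha and Ldhb differed by -0.13 (SE 0.19) and -0.15 (SE 0.17), and by -0.011 and -0.098 without control replicate 2. Me2, the mitochondrial malic enzyme, differed by 0.32 (SE 0.18). The related 2-oxoacid dehydrogenases, which share E3 or the architecture of the complex, had 4 of 9 higher and a median of -0.017, with 0 at an unadjusted p under 0.05, and Ogdh, the E1 of the oxoglutarate complex, differed by 0.24 (SE 0.18), and by 0.15 without TCQA replicate 1.

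In the citric acid cycle 10 of 14 genes were higher, with a median of 0.090 and 1 at an unadjusted p under 0.05. That was Sdha, the flavoprotein of succinate dehydrogenase, at 10.80 and 10.68 with TCQA and 9.98 and 10.40 in control, a difference of 0.55 (SE 0.21, limma adjusted p = 0.787). As for Pdha1 and Pdhb, control replicate 1 was lowest, in 9 of the 14, and without it Sdha differed by 0.34. Mdh2, the mitochondrial malate dehydrogenase, differed by 0.33 (SE 0.17) and Idh3a, of the NAD-dependent isocitrate dehydrogenase, by 0.32 (SE 0.19).

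Factors and targets known to act with Pdk4 outside the brain gave a mixed picture. Foxo1, a FOXO transcription factor that is held out of the nucleus by insulin signalling, read 9.03 and 9.09 with TCQA and 8.19 and 8.21 in control. Its groups were apart in the manner of Pdk4, with a difference of 0.86 (SE 0.17, limma adjusted p = 0.787) or 1.81-fold that lay between 0.83 and 0.89 when each array was left out. The FOXO list as a whole had 7 of 14 higher and 7 lower, a median of 0.018 and 1 gene with an unadjusted p under 0.05, Foxo1 itself. Cdkn1a, a cell cycle inhibitor that FOXO factors induce, differed by 0.44 (SE 0.27), Sesn3 by -0.25 (SE 0.18) and Foxo6, dim on all arrays, by -0.62 (SE 0.33). Without TCQA replicate 1 the 3 genes differed by 0.073, -0.15 and -0.12.

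Among PPAR and fasting genes 7 of 12 were higher, with a median of 0.047 and 2 at an unadjusted p under 0.05. Acot2, a mitochondrial acyl-CoA thioesterase, was at 8.41 and 8.63 with TCQA and 7.73 and 7.86 in control. Its difference was 0.72 (SE 0.18, limma adjusted p = 0.787). Its control signals were dim, 0.41 and 0.69 above the median negative control of their arrays. Fabp7, a fatty acid binding protein of astrocytes and progenitors, differed by 0.76 (SE 0.30), by 0.46 without TCQA replicate 1 and by 0.43 without control replicate 2. Cpt2, an enzyme of fatty acid entry into mitochondria, differed by 0.47 (SE 0.21) and the lipid droplet gene Plin2 by 0.37 (SE 0.19), both from signals under the median negative control. Cpt2 was at 0.27 without control replicate 2, and Plin2 at 0.23 without TCQA replicate 1. The glucocorticoid list had 11 of 15 higher, a median of 0.11 and 2 genes at an unadjusted p under 0.05. They were the receptor co-chaperone Fkbp5, at 12.01 and 12.22 against 11.64 and 11.60 (0.50, SE 0.18), and the transcription factor Zbtb16 (0.52, SE 0.20, with 0.35 without TCQA replicate 1). Both had a limma adjusted p of 0.787. Hypoxia genes, read because Pdk1 is a known HIF target, had 6 of 16 higher and a median of -0.16. The 1 gene of this list at an unadjusted p under 0.05 was Slc2a1, the glucose transporter of the blood-brain barrier, at 0.57 (SE 0.19), while Egln3, a HIF prolyl hydroxylase, differed by -0.41 (SE 0.20), and by -0.24 without control replicate 2.

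**Figure D4:**
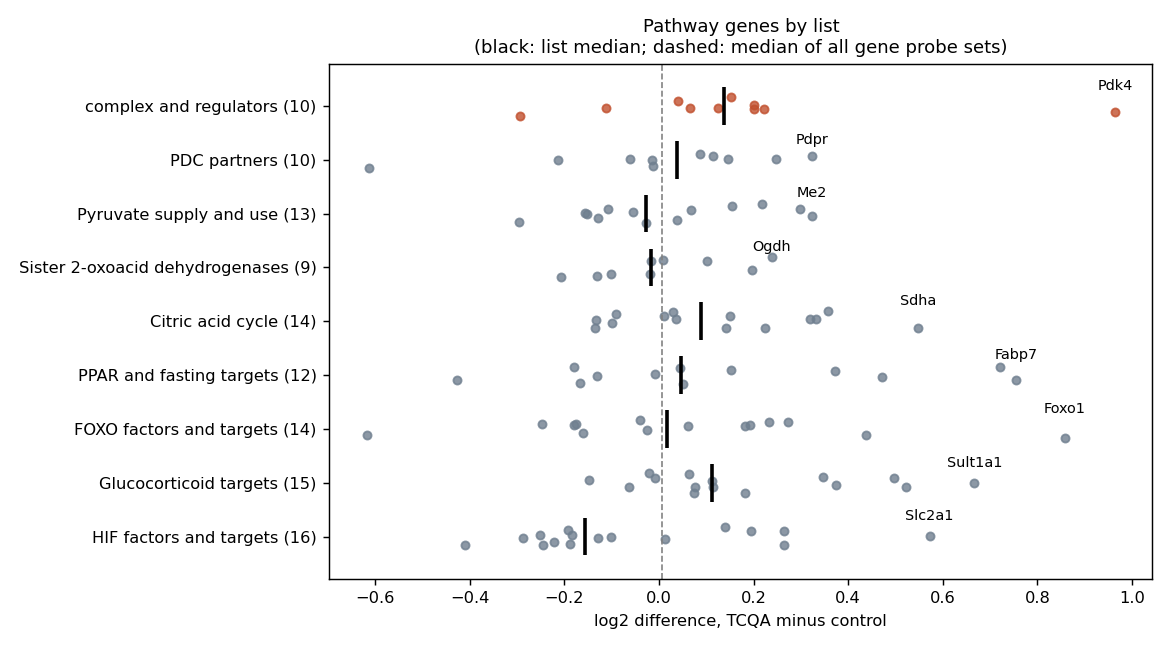
Each point is the log2 difference, TCQA minus control, of 1 gene in 1 list, with the number of genes in brackets, the list median in black and the median of all gene probe sets dashed. Medians run from -0.16 for hypoxia genes to 0.14 for the complex and its regulators, and Pdk4 at 0.96 and Foxo1 at 0.86 lie farthest to the right.

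Likeness of pattern was measured as the root mean square distance over the 4 arrays between log2 values centred on each gene's own mean. It was ranked among 9785 named probe sets at or above the median signal. Predicted genes, genes with a Rik symbol and chemosensory receptors were left out of these. The 3 nearest to Pdk4 were Fbxw5 (distance 0.033), Cd83 (0.048) and Prxl2a (0.061), and 9 lay within 0.1. Foxo1 ranked 12 at 0.11. The 3 nearest to Pdk2 were Ube3b, Slc7a4 and Dazl, at 0.019 to 0.023, with 138 probe sets within 0.1. With 4 arrays close matches arise readily, and more of them for a pattern as shallow as that of Pdk2.

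Cell makeup was read from marker lists, also chosen with earlier results of these data known. Neuron markers were present throughout, with Slc17a7, the vesicular glutamate transporter of cortical excitatory neurons, at 16.39 and 16.02 with TCQA and 16.68 and 16.38 in control, and 6 of 12 higher (summed log2 signal 19.35 to 19.47 with TCQA and 19.26 to 19.43 in control). Members of this list went both ways. The synaptic gene Snap25 differed by 0.62 (SE 0.18, limma adjusted p = 0.787) and Gad2, an enzyme of GABA synthesis, by 0.54 (SE 0.24), both with the TCQA arrays above the control arrays, and Thy1 differed by -0.36 (SE 0.17) with the TCQA arrays below. Astrocyte markers had 9 of 12 higher (summed log2 signal 18.41 to 18.64 with TCQA and 18.35 to 18.52 in control). Endothelial markers had 7 of 10 higher (14.77 to 14.82 and 14.38 to 14.50), mural cell markers 5 of 10 (13.74 to 14.07 and 13.69 to 14.14) and microglia markers 7 of 9 (13.71 to 14.01 and 13.66 to 13.71). Meningeal fibroblast markers had 12 of 12 higher (12.57 to 12.82 and 11.50 to 12.70), and choroid plexus markers 3 of 9 (12.51 to 15.06 and 9.92 to 16.46). The 9.92 was on control replicate 1, the lowest array for 8 of the 9 markers, and the 16.46 on control replicate 2. Ttr read 7.49 and 16.42 on these arrays in turn, and 12.23 and 14.97 with TCQA. Oligodendrocyte markers had 6 of 11 higher (16.72 to 16.98 and 16.81 to 17.05). The endothelial sum, in which the bright Ly6c1 and Slco1a4 weigh most, was like Pdk4 higher on both TCQA arrays than on both control arrays. Of the 10 endothelial markers 6 had both TCQA arrays above both control arrays. In 2 they lay below, Pecam1 (-0.26, SE 0.18) and Tek (-0.33, SE 0.20). At an unadjusted p under 0.05 in limma 2 endothelial markers were higher (3.38% of all probe sets) and 0 lower (2.86%). The 2 were Slco1a4 (0.47, SE 0.18, limma adjusted p = 0.787) and Ly6c1 (0.46, SE 0.18, limma adjusted p = 0.788). Of the 12 astrocyte markers 7 had the TCQA arrays above and 1 had them below. Over all probe sets the shares were 18.9% above and 17.8% below. The meningeal sum, in which the bright Igf2 weighs most, was low mainly on control replicate 1. However, 5 of the 12 meningeal markers had both TCQA arrays above both control arrays (18.9% of all probe sets). Of these 5, 4 were higher at an unadjusted p under 0.05 in limma (3.38% of all probe sets). These 4 were Ogn (8.45 and 8.92 with TCQA, 6.90 and 7.46 in control), Slc6a20a (10.05 and 10.24, 9.35 and 9.54), Slc6a13 (8.52 and 8.61, 7.98 and 7.90) and Mgp (8.28 and 8.64, 7.31 and 8.03), each with a limma adjusted p of 0.787, and the fifth was Col3a1. The median of the meningeal list was 0.42, and 0.35 without control replicate 1, where 7 of 12 were higher. These meningeal markers and Snap25, Gad2, Thy1, Pecam1, Tek, Slco1a4, Ly6c1 and Ttr were chosen for mention after they were seen. The part of these cell types in the Pdk4 value, or in the member values of control replicate 1, was not tested.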

How the data were processed

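Per the labels' protocols, 100 ng of RNA was labelled with the WT PLUS kit and hybridised to Clariom S mouse arrays, and the authors made the deposited log2 signals with SST-RMA in the Transcriptome Analysis Console 4.0.2. The build of its annotation was not given in the sources used here. The table held 28846 probe sets, 6640 of them controls; 19572 of the 22206 gene probe sets had 1 symbol, 0 several and 2634 none. Groups and replicate numbers came from the titles. The groups were compared over all 22206 with limma 3.58.1 in R 4.3.3 (lmFit, eBayes, two-sided, Benjamini-Hochberg), with 2 residual and 4.23 prior degrees of freedom; the procedure was tested on simulated data. The number of arrays limits the precision (median SE 0.20).

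The members and lists were chosen with earlier results of these data known. All members are named; of each pathway list the 4 genes with the smallest unadjusted p, and Dld, Mpc1, Pdpr, Ldha and Ldhb, could be named, and the 3 probe sets most like the 2 members with the largest differences. Foxo1 was added to the likeness list after its values were seen. Alternatives were each array left out, a replicate block, 2 scalings, a filter on dim probe sets and other moderation. Of the listed pathway genes 7, Mpc2 among them, were not named here and were not analysed.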

Additional observations from a re-analysis of the deposited data

How the results depend on the processing

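The Pdk4 difference lay between 0.85 and 1.08 when each array was left out and between 0.94 and 0.96 under the other settings run. Of those other settings only the 2 scalings could move it. The replicate block and the filter on dim probe sets cannot change a gene's difference. Over the 10 genes 79 alternative values were computed, those of the block and the filter included. Of these 5 changed sign, all by leaving out 1 array. With 2 arrays a group, leaving out 1 cannot move a difference by more than the replicate SD, so that measure says nothing about stability here. Pdp2 has no value among probe sets at or above the median signal. Leaving out 1 array gave a median difference of the 10 genes of 0.016 to 0.25, lowest without control replicate 1. The depositors' criterion was then met by 160 to 291 probe sets in place of 83, an adjusted p under 0.05 by 0 to 4, the 4 without TCQA replicate 1, and an unadjusted p under 0.05 by 4 to 7 pathway genes in place of 8. The criterion was met by 36 probe sets at or above the median signal, where 11103 were tested. With no moderation 25 met it, and 5 pathway genes had an unadjusted p under 0.05. With an intensity trend in the moderation 86 met it, and 11 pathway genes had an unadjusted p under 0.05. The causes of the other changes were not tested. The replicate numbers are only a shared number: deviations of same-numbered arrays correlated at 0.051, and a replicate block left each difference as it was and gave 92 probe sets past the criterion and 9 pathway genes. Dim signals limit Pdp2, Cpt2, Plin2 and Foxo6, and the control levels of Pdk4 and Acot2.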
